A study of Saccharomyces cerevisiae with 57 samples.

Results

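Reb1 ChEC-seq was followed over 4 digestion times, 2.5, 5, 10 and 20 m (minutes), in the 4 Reb1 libraries whose labels carry one run code. They are 4 of the 57 samples of the series and 4 of its 17 Reb1 libraries, and they were chosen by factor, digestion time and run code, not by any measured value. In ChEC-seq a DNA-binding protein is fused to micrococcal nuclease (MNase), an enzyme that cuts DNA only when calcium is present, so that adding calcium releases fragments whose ends lie near the places the fusion protein visits. The strain was budding yeast W1588-4C, congenic to W303-1A but RAD5+, with the genotype REB1-3FLAG-MNase-kanMX6. The endogenous REB1 gene carried the nuclease at its C-terminal end through the longer of the study's linkers. Cells grown in rich medium were permeabilized with digitonin, CaCl2 started the digest, and the protocol stopped an aliquot of it at each time. The 4 libraries are therefore digestion times of one protocol, with 1 library each, and since no time has a replicate, no p-value between times is given.

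The comparison libraries carried the same strain background. They were Reb1 with no calcium added (1 library with the same run code and genotype), Reb1 after 30 s (3 replicates with other run codes), Reb1 after 60 s (1 library), and the minute courses at the same 4 times of 3 other strains. The Abf1 strain was ABF1-3FLAG-MNase-kanMX6 and the Rap1 strain RAP1-3FLAG-MNase-kanMX6, which tag other DNA-binding factors. The free MNase strain was ura3::P_REB1-3FLAG-MNase-NLS-URA3, in which unfused nuclease with a nuclear localization signal is driven by the REB1 promoter from the URA3 locus, so that it holds an additional copy of that promoter. Digests of 5 m were also taken from 2 other Reb1 fusions, 1 library each. One has a shorter linker, under the same genotype in its label although the study's strain list gives it a fusion of its own (REB1-SL-MNase-kanMX6). The other has the nuclease at the N-terminal end (pRS413-P_REB1-MNASE-3FLAG-REB1), carried on a plasmid in cells whose chromosomal REB1 is deleted. Nothing in the labels says that the 30 s replicates came from separate cultures, and these replicates are the only measure here of the spread between libraries.

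Reb1 is an essential general regulatory factor of budding yeast with a Myb-family helix-turn-helix DNA-binding domain. It binds a short sequence that contains the letters TTACCCG, mostly in the nucleosome-depleted stretch upstream of genes that RNA polymerase II transcribes, where it helps to keep nucleosomes away. It also binds the ribosomal DNA, where it acts in RNA polymerase I transcription, and it can block RNA polymerase II that runs past the end of a gene.

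Sequences from promoters described below are shown first, so that the letters can be set beside the values, as sequence of the reference genome (build R64, the sequence of sacCer3), each with 27 bases on either side of the marked letters and read 5′ to 3′ on the strand that carries them. The first set holds the motif itself, in capitals. It comes from promoters with the largest falls named below (TOA2 to PDE1), from RPB11, which has 3 copies in its window, and from the genes for Reb1 (REB1), actin (ACT1) and triose phosphate isomerase (TPI1).
TOA2 and MPE1 (chrXI:329994-330054, minus strand): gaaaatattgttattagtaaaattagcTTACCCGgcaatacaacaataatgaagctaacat
TAF2 (chrIII:205512-205572, plus strand): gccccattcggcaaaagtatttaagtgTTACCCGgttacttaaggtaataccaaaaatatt
AIM21 and MPH1 (chrIX:360543-360603, plus strand): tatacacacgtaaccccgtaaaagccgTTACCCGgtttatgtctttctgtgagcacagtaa
BPH1 (chrIII:179280-179340, minus strand): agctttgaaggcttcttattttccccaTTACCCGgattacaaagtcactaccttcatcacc
APL4 (chrXVI:627107-627167, minus strand): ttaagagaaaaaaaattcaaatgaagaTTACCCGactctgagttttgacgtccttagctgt
PDE1 (chrVII:35201-35261, plus strand): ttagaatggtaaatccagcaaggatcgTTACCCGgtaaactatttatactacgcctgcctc
RPB11 (chrXV:316305-316365, minus strand): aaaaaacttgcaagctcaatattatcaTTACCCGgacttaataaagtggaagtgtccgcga
REB1 (chrII:337053-337113, minus strand): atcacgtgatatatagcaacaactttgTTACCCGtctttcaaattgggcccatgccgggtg
ACT1 (chrVI:55040-55100, minus strand): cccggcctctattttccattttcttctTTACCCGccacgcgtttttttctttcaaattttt
TPI1 (chrIV:556837-556897, minus strand): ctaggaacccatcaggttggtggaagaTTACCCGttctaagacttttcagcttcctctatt

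The second set comes from promoters that fell, or in the case of ILV1 were lower, without holding the full motif. The capitals mark 7 letters that differ from the motif at a single base.
PDS5 (chrXIII:420219-420279, minus strand): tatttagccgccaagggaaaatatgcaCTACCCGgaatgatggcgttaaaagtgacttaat
HIS5, farther from the gene (chrIX:142522-142582, minus strand): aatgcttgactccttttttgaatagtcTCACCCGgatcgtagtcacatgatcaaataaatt
HIS5, nearer to the gene (chrIX:142722-142782, plus strand): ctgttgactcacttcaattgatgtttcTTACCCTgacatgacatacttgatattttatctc
RAP1 (chrXIV:241433-241493, plus strand): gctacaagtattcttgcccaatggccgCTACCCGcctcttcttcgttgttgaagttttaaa
ILV1 (chrV:328264-328324, minus strand): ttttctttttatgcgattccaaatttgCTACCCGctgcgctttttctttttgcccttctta

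The third set comes from promoters that gained share. Here the single capital marks the base of the 500-bp window with the most fragment ends at 20 m, and the strand is that of the gene. None of the 4 holds the motif in its window.
GCV3 (chrI:58576-58636, minus strand): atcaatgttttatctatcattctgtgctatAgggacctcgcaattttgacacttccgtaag
DNM1 (chrXII:147679-147739, plus strand): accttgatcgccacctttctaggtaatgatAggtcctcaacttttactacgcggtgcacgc
RPL2B (chrIX:316513-316573, plus strand): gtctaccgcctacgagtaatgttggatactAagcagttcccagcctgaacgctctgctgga
GID8 (chrXIII:540143-540203, minus strand): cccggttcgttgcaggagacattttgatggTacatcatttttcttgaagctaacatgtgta

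The motif was searched as TTACCCG on both strands. It occurred in the 500 bp upstream of the start codon of 604 of the 5983 protein-coding genes kept, which is 10.1%, and a match is a description of the letters and not a site shown to be bound. All levels below are in ppm, that is, fragment ends in a window per 1000000 nuclear ends outside the ribosomal DNA, so they are shares of a library: what one window loses, others gain. A promoter is the 500-bp window upstream of the start codon, a promoter is said to have lost or gained share, fallen or risen, when its value at 20 m was at most 1/2 or at least 2 times that at 2.5 m (with 1 end added to each count), and log2 changes are from 2.5 to 20 m throughout. Windows of divergent neighbours overlap, so the promoters are not independent of each other.

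The libraries were of like depth. They held between 5560749 and 6021088 fragments and between 7372265 and 7841301 nuclear ends outside the ribosomal DNA, and the ribosomal DNA took 32.3 to 35.4% of fragments. Fragments at distinct positions made up 60.6% of nuclear fragments outside the ribosomal DNA at 2.5 m, 67.5% at 5 m, 75.1% at 10 m and 74.4% at 20 m. The library without calcium was shallower (3521357 ends) and far more repetitive, at 32.7% distinct, and it held 11.1% mitochondrial fragments against at most 0.223% in the course. No molecular identifiers were used, so the intervals given below cover counting error only.

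Over the course the promoters divided by whether they held the motif. Of 5842 promoters with a mean of 100 ends or more over the 4 libraries, 596 lost share (10.2%) and 1189 gained share (20.4%), together 1785 (30.6%). As a yardstick, pairs of Reb1 30 s replicates differed 2-fold either way at 4.04% (replicate 1 against 2), 11.1% (1 against 3) and 0.325% (2 against 3) of the same promoters. Replicates 2 and 3 share a run code and replicate 1 has another, so only the lowest share comes from within a run code. Replicate 1 was also more repetitive, at 46.0% distinct nuclear fragments outside the ribosomal DNA against 66.3 and 68.5%. Promoters holding the motif fell by a median of 1.00 on the log2 scale, and 302 of the 604 lost share (50.0%), whereas those without it had a median log2 change of 0.64, with 294 of 5238 losing share (5.61%). Conversely, 1188 of the 1189 promoters that gained share lacked the motif. The exception was SMD1, which encodes a core spliceosome protein and was looked up after its values were seen: its window holds 2 copies, yet its promoter rose from 21.8 ppm at 2.5 m through 28.2 and 34.7 to 45.0 at 20 m.

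The size of these counts depends on the scale. The median promoter was 0.55 higher on the log2 scale at 20 m than at 2.5 m, with quartiles of -0.08 and 0.92, and most of that came early, with median steps of 0.25, 0.20 and 0.01. Between pairs of 30 s replicates this median lay between 0.12 and 0.59, so the shift was within the spread between those libraries. The median of motif promoters minus that of the rest was -1.64 over the course, and -0.46 to -0.17 between those pairs. When the libraries were instead scaled by the median ratio over promoters, 1115 promoters were 2-fold lower (19.1%) and 115 were 2-fold higher (1.97%), and among motif promoters 511 of 604 were lower and 0 higher. When identical fragments were counted once, 492 were lower and 273 higher. The number of losses at motif promoters grew with the scaling by ratios. Most of the gains were absent with that scaling, and most were also absent on the scale of shares when identical fragments were counted once.

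**Figure D1:**
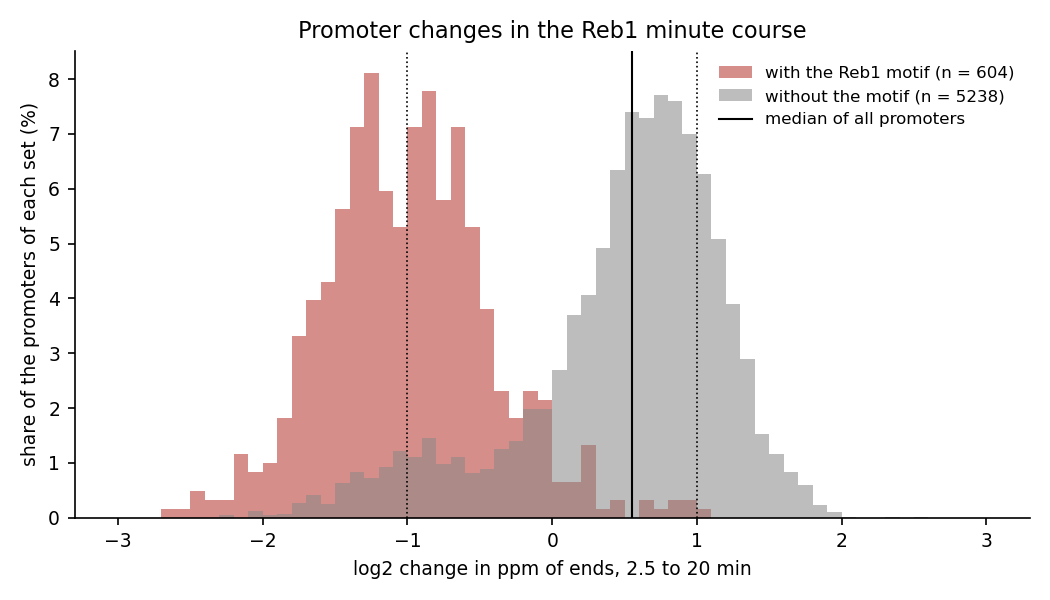
Distribution over promoters of the log2 change in ppm from 2.5 to 20 m (horizontal axis), as a percentage of the promoters of each set (vertical axis), for 604 promoters with the motif and 5238 without. Dotted lines mark the 2-fold limits and the solid line the median of all promoters at 0.55, and the motif promoters have their median at -1.001, to the left of the 0.64 of those without.

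The fall was gradual and passed through every time point. The median promoter that lost share held 277.7 ppm at 2.5 m, 204.9 at 5 m, 160.6 at 10 m and 106.8 at 20 m, and 574 of the 596 were lower at each of the 3 steps, against 999 of all 5842 promoters (17.1%). The 596 were chosen by their fall from 2.5 to 20 m, which favours falls at each step, so this share describes the group and is no separate result. In the 30 s replicates the same promoters had medians of 304.6, 350.8 and 341.3 (332 ± 24.4, SD, n = 3), and without calcium the median was 90.6. By 20 m these promoters had thus come close to the level they had with no calcium added. The bases of the windows that lost share, merged so that none was counted more than once, made up 2.16% of the genome outside the ribosomal DNA and held 18.4% of ends at 2.5 m (95% exact Clopper-Pearson interval 18.4 to 18.5), 13.6% at 5 m, 9.88% at 10 m and 6.91% at 20 m (6.89 to 6.93). They had held 23.3 to 24.8% in the 3 replicates at 30 s, 5.07% without calcium and 3.34 to 4.06% in the free MNase course.

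Promoters that gained share started low. Their median was 25.1 ppm at 2.5 m, 34.9 at 5 m, 48.2 at 10 m and 59.4 at 20 m, while the median of all promoters was 54.7, 68.0, 78.7 and 76.8. At 30 s their median had been 14.9 ± 1.79 (SD, n = 3). Of the 1189, 1085 were higher at each of the 3 steps, against 2312 of all promoters (39.6%), a share that the choice of these promoters by their rise likewise favours. The medians of both groups had thus moved from 277.7 and 25.1 at 2.5 m towards each other, to 106.8 and 59.4 at 20 m, which describes the groups and is no separate result, since the same values defined them.

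The level at 30 s, measured in libraries that the calls did not use, ordered the promoters in the same way. When the promoters were put into 5 groups of equal size by their mean level at 30 s, 0 of 1169 lost share in the lowest group and 582 gained it, and in the highest group 569 of 1168 lost share and 0 gained it. Median log2 changes for the groups from lowest to highest were 0.998, 0.81, 0.65, 0.25 and -0.98, so the break fell before the highest group. Motif promoters numbered 1, 3, 10, 96 and 494 in these groups. Across the 5842 promoters, which are not independent replicates, Spearman's rho between the level at 30 s and the change was -0.78.

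The 10 largest falls by fold are described first. The promoter window between TOA2, which encodes the small subunit of TFIIA, and the divergent MPE1, a subunit of the cleavage and polyadenylation factor, held 890.2 ppm at 2.5 m, 460.2 at 5 m, 326.3 at 10 m and 140.2 at 20 m. This was a fall by 2.67 on the log2 scale, or 6.35-fold (95% exact interval for counting error 5.96 to 6.78), and 20 m was close to the 127.8 without calcium. In the 30 s replicates that window had held 2863, 2643 and 2168 ppm, all above the value at 2.5 m. The motif in its window lies on the strand opposite to TOA2, and the most-cut base within 100 bp of it lay 7 bases before the motif centre in all 4 libraries, with 175.5, 75.3, 37.8 and 8.93 ppm at that base alone.

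TAF2, for a TFIID subunit, fell from 567.8 through 327.2 and 215.8 to 101.1 ppm, and the window of AIM21, for an actin-associated protein, and MPH1, for a DNA helicase, fell from 1187 through 690.2 and 440.7 to 214.8. Both hold 1 motif, and the balance of cuts around it differed: at AIM21 95.8% of the ends within 100 bp of the motif lay upstream at 2.5 m, and at TAF2 52.2% did, close to an even split. RRT7, which is uncharacterised, and FRA1, which takes part in repression of the iron regulon, are divergent neighbours whose windows share 2 motifs, and they fell from 412.5 to 82.6 and from 614.7 to 124.6. BPH1, a homologue of the human Beige protein, fell from 454.0 to 92.2, APL4, the gamma-adaptin of the AP-1 coat, from 567.1 to 117.1, and PDE1, a cyclic AMP phosphodiesterase, from 704.4 to 154.6. Each was lower at every step, and their log2 changes lay between -2.19 and -2.49.

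PDS5, needed for sister chromatid cohesion, and HIS5, an aminotransferase of histidine synthesis, were the members of this set of 10 without the full motif. PDS5 held 765.4, 470.5, 320.9 and 157.9 ppm and HIS5 665.1, 374.5, 236.4 and 144.2. Their windows carry one-base variants, among them those printed above, as do 52.7% of all promoters without the motif.

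**Figure D2:**
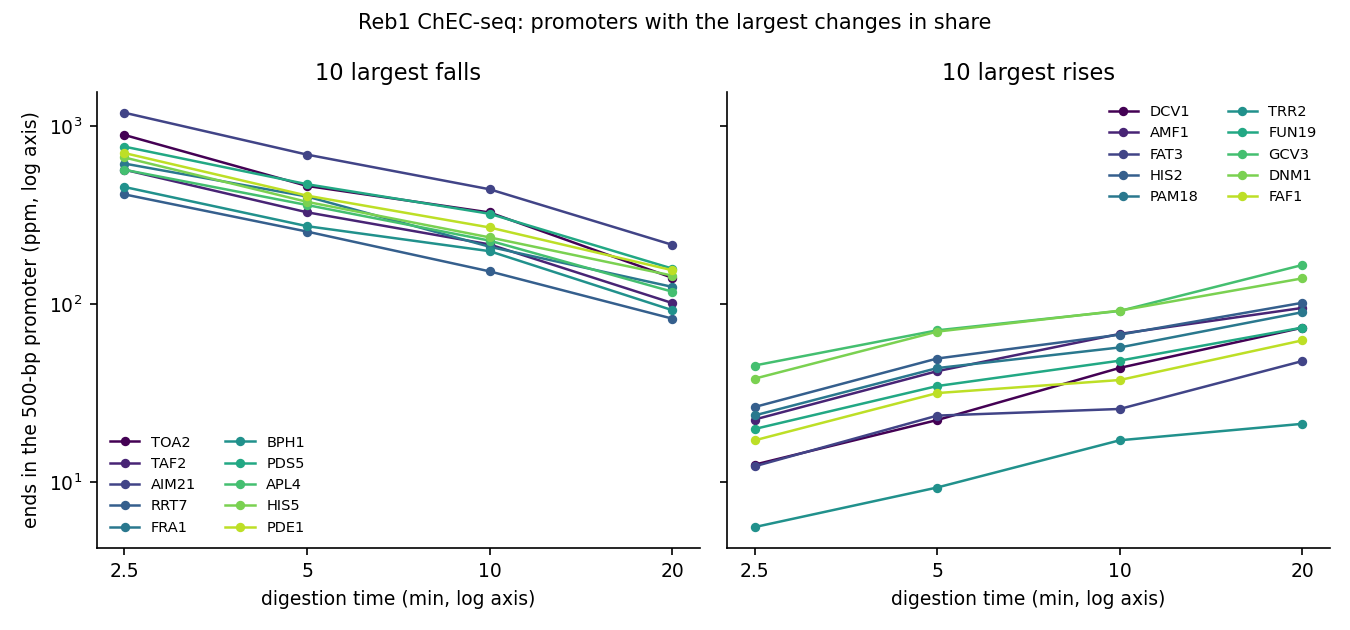
Ends in ppm in the 500-bp promoter (vertical log axis) against digestion time in minutes (horizontal log axis) for the 10 promoters with the largest falls (left) and the 10 with the largest rises (right), 1 library per time. The falling promoters start between 412.5 and 1187 and end between 82.6 and 214.8, and the rising ones start between 5.56 and 45.0 and end between 21.2 and 165.4.

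By ppm rather than fold, the largest losses were at promoters that carried the most ends at 2.5 m. The window of CPR1, a cyclophilin, most of which it shares with RPA14, a subunit of RNA polymerase I, holds 2 motifs and fell from 1513 through 1122 and 478.4 to 451.8 ppm. RPB11, a subunit of RNA polymerase II, holds 3 motifs and fell from 1352 through 758.1 and 472.9 to 304.0. HTZ1, the gene of the histone variant H2A.Z, has 1 motif and fell from 1402 to 487.7. FAB1, a lipid kinase of the vacuole, and GAT1, an activator of nitrogen-repressed genes, lack the full motif and fell from 1471 to 457.4 and from 1310 to 511.9. These are high levels also at 20 m, when the median of all promoters was 76.8.

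Among promoters known from work on Reb1, a list of 12 genes, 6 fell (50%) and 2 rose (16.7%), beside 10.2% and 20.4% of all promoters. The median log2 change of the list was -1.07 beside 0.55 for all promoters. Of the 12, 5 hold the motif, and 4 of those 5 fell. REB1 itself, whose promoter holds the motif, held 756.6 ppm at 2.5 m, 475.5 at 5 m, 274.2 at 10 m and 186.2 at 20 m. Its 30 s replicates were spread widely, at 1010 in replicate 1 and, under the other run code, 435.5 and 428.3, and the 2.5 m value lay inside that range. In the free MNase strain, with its additional copy of this promoter, REB1 had 387.8 and 346.4 at 2.5 and 20 m. ACT1 fell from 671.4 to 179.2, TPI1 from 878.3 to 309.0, FAS2, a subunit of fatty acid synthase, from 356.2 to 142.3, and RAP1, the gene of another general regulatory factor, from 292.2 to 126.9. ENO1, which encodes the glycolytic enzyme enolase, fell from 865.4 to 386.8 without the motif. ILV1, a deaminase of isoleucine synthesis, went from 137.8 to 74.5 and PFY1, profilin, from 219.6 to 111.3, and FAS1 (68.8 and 70.5) and GCY1 (46.1 and 62.7), a glycerol dehydrogenase, were like them short of 2-fold. GAL1 and GAL10, the galactose kinase and epimerase genes that share a control region, rose from 65.1 to 146.9 and from 60.4 to 143.3.

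Gene groups are given by their counts, to be read beside the 10.2% and 20.4% of all promoters. Of the 32 proteasome subunits, whose proteins make up the main protease of the cell, 10 fell and 3 rose (median log2 change -0.52), and 10 hold the motif. Of those 10 motif promoters 4 fell: PRE4 (230.5 to 67.0 ppm), PUP1 (306.8 to 99.1), RPT1 (446.1 to 176.6) and PRE2 (923.3 to 390.5). The other falls had no full motif, such as PRE3 (574.5 to 179.1), PRE6 (374.2 to 117.7) and PUP3 (788.1 to 346.6), all for the core particle, while RPN11, the deubiquitinase of the lid, rose from 29.0 to 96.8. PRE9 (150.7 to 75.2) lay just inside the 2-fold limit, and among all promoters YCR095W-A (99.8 to 49.9) lay just outside it.

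Of the 6 general regulatory factor genes, REB1, ABF1 (659.1 to 194.9) and RAP1 fell, MCM1 went from 241.2 to 147.4, TBF1 from 56.3 to 97.0, and CBF1 rose from 59.7 to 143.0. Of 17 glycolytic genes 2 fell (TPI1 and ENO1, 11.8%) and 0 rose, with a median of -0.20, and the pyruvate kinase CDC19 went from 214.3 to 167.7. Of 19 subunits of RNA polymerases I and III, 2 fell, both with the motif (RPA14 and RPA190, the latter from 134.4 to 51.4), and 7 rose, among them RPA135 (52.8 to 153.2) and RPC17 (36.8 to 106.9). Of 7 galactose genes 1 fell (GAL3) and 4 rose, of 14 meiotic genes that passed the filter 0 fell and 4 rose, and of 16 heat shock chaperones 1 fell (HSC82) and 1 rose (HSP26).

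Of 137 cytosolic ribosomal protein promoters 6 fell (4.38%) and 20 rose (14.6%), with a median of 0.56, and of 71 mitochondrial ribosomal protein promoters 7 fell (9.86%) and 12 rose (16.9%), with a median of 0.48. Both shares lay below those of all promoters in the first group, and in the second they were closer to them. All 8 core histone promoters lay between 0.33 and 0.60, none past the 2-fold limit, beside the 0.55 of all promoters.

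The largest rises came from promoters with few ends at 2.5 m. The window shared by DCV1, which is uncharacterised, and MIC19, a subunit of the mitochondrial MICOS complex, held 12.5 ppm at 2.5 m, 22.2 at 5 m, 43.7 at 10 m and 73.5 at 20 m, a 5.89-fold rise (exact interval 4.72 to 7.42). In the free MNase course this window stayed at 54.5 and 53.8, so at 20 m Reb1 had come above that level from below it. A tRNA gene lies inside the window. AMF1, an ammonium transporter, held 22.4, 41.9, 67.8 and 94.9, GCV3, a subunit of glycine decarboxylase, 45.0, 71.0, 91.2 and 165.4, and DNM1, a dynamin-related GTPase of mitochondrial fission, 38.0, 69.8, 91.6 and 139.1. The other 6 (FAT3, HIS2, PAM18 with RLP24, TRR2, FUN19, and FAF1 with HIS6) ended between 21.2 and 101.4 after starting between 5.56 and 26.3. All 10 stayed past 2-fold with the scaling by median ratios, at log2 changes of 1.31 to 2.00.

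At GCV3 a single base, the one capitalised above, took 21.1% of the window's ends at 20 m. It held 5.83, 13.0, 17.0 and 34.9 ppm over the course, and 4.74 and 17.8 at 2.5 and 20 m in the free MNase course. In the Reb1 library without calcium it held 11.4, above the 5.83 at 2.5 m. The capitalised base of GID8, a subunit of a ubiquitin ligase, went from 1.90 to 22.8 and had 0 ends in free MNase at both times and 1.70 ppm without calcium.

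The 6 promoters described next had the largest gains in ppm. QCR6, a subunit of respiratory complex III, rose from 280.4 through 403.7 and 412.0 to 571.3, GID8 from 146.0 through 241.7 and 250.5 to 378.4, and RPL2B, a protein of the large ribosomal subunit, from 119.2 through 214.2 and 240.0 to 314.0. Only 250 bases of the QCR6 window are noncoding, and they held 45.38% of its ends at 2.5 m and 33.35% at 20 m. Most ends of that window thus lay in coding sequence, while the windows of GID8 and RPL2B are noncoding throughout. PMP3, a small plasma membrane protein, PYC1, pyruvate carboxylase, and RPS23A, a protein of the small ribosomal subunit, rose by 2.16-, 2.18- and 2.41-fold. In the Abf1 course, where 16.7% of promoters fell, all 6 fell, with log2 changes from -1.17 to -1.90. In the Rap1 course, where 10.9% fell, 4 of the 6 fell and GID8 (-0.87) and PYC1 (-0.74) were short of 2-fold. The 1189 promoters that gained share did not do this as a group, with medians of 0.51 in the Abf1 course and 1.03 in the Rap1 course. RPL2B held 468.2 ppm with Rap1 at 2.5 m and 77.5 at 20 m, and RPS23A 438.5 and 86.6. No full motif lies in any of the 6 windows, and with the scaling by median ratios their rises were short of 2-fold, at log2 changes of 0.48 to 0.85.

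More copies of the motif went with larger falls. Promoters with 0, 1, 2 and at least 3 copies had median log2 changes of 0.64, -0.98, -1.46 and -2.12, in 5238, 581, 20 and 3 promoters, and the share that fell was 5.61, 48.9, 75 and 100%. Among promoters with 1 copy, medians differed more by the base just before the motif than by the base after it. With G before the motif the median was -1.18 and 64.7% of 184 fell, with A -0.99 (49.3% of 223), with C -0.89 (41.1% of 73) and with T -0.54 (24.8% of 101), while the medians by the base after it lay between -0.97 and -1.04. Of the sequences printed above, TAF2, AIM21, PDE1 and REB1 have the G, and BPH1, APL4 and TPI1 the A. RPB11, with 3 copies in its window, also has the A at the copy printed. TOA2, the largest fall by fold, has the C (log2 change -2.67) and ACT1 the T (-1.905), so single promoters departed from this order.

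By the place of the motif, medians departed most in groups of few promoters. Motifs in noncoding bases went with a median of -1.003 in 557 promoters, of which 50.1% fell. Those inside a neighbouring coding sequence went with -0.51 in 24, of which 20.8% fell. By distance from the start codon, medians were -0.58 within 100 bp (12 promoters), -0.99 at 100 to 200 bp (325), -1.05 at 200 to 300 bp (120), -1.03 at 300 to 400 bp (70) and -0.79 at 400 to 500 bp (54). The share that fell in these bins was 16.7, 49.9, 53.3, 51.4 and 37.0%. The 3 middle bins, which hold most motifs, thus differed little.

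Falls without the motif were concentrated where some of its one-base variants occurred. Of the 21 words that differ from TTACCCG at 1 base, 4 stood lowest among promoters without the full motif: TAACCCG (median log2 change -0.71 in 108 promoters), TTACCCT (-0.39 in 393), CTACCCG (-0.35 in 116) and TCACCCG (-0.34 in 147). At least 1 of these 4 was present in 201 of the 294 promoters that fell without the motif (68.4%), in 728 of all 5238 without it (13.9%), and in 41 of those that gained share (3.45%). They were singled out by these same changes, so the shares are a description. Any of the 21 was present in 280 of those 294 promoters (95.2%), in 2761 of the 5238 (52.7%) and in 512 of those that gained share (43.1%). The presence of some variant in a window is therefore common. The medians of the other 17 ran from -0.03 (TGACCCG, in 97 promoters) to 0.74 (TTCCCCG, in 159), beside the 0.64 of all promoters without the motif. The share that fell, 5.61% in all of these, was 20.9% with GTACCCG, 20.6% with TGACCCG, 16.8% with TTACCCC and 14.2% with ATACCCG and with TTACCCA.

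Around single motifs the cuts showed where the loss lay. In 506 promoter sites, the ends within 100 bp of the motif centre summed to 181.6 ppm per site at 2.5 m, 140.3 at 5 m, 104.4 at 10 m and 76.0 at 20 m, against 230.0 to 255.5 in the 30 s replicates and 48.4 without calcium. Of the 506 sites, 312 were 2-fold lower at 20 m (61.7%), 1 was 2-fold higher, and 390 were lower at each step (77.1%). In the free MNase course the same sites held 33.2 at 2.5 m and 45.1 at 20 m. They held 71.5 and 44.4 at these times with Abf1 and 57.7 and 54.5 with Rap1, so the 76.0 of Reb1 at 20 m was close to the 71.5 of Abf1 at 2.5 m.

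The side 5′ of the motif, read on the strand with TTACCCG, lost most. Its ends went from 120.5 through 82.1 and 56.2 to 36.0 ppm per site, and those on the 3′ side from 56.1 through 51.4 and 41.6 to 34.2. The ratio of the 5′ to the 3′ side was 2.15, 1.60, 1.35 and 1.05 over the course, 4.95, 5.60 and 5.02 in the 30 s replicates and 1.41 without calcium. At 20 m it was also 1.05 in the Abf1 and free MNase courses, so at that time the ratio did not set Reb1 apart from them. At 2.5 m 461 of the 506 sites had more ends on the 5′ side, and at 20 m 288 did. Site by site, the median log2 change was -1.70 on the 5′ side and -0.52 on the 3′ side, and 460 of the 498 sites with 100 or more ends in each library fell more on the 5′ side (92.4%).

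Base by base, the strongest cut before the motif shrank while one inside it persisted. At 8 bases before the motif centre there were 9.98 ppm per site at 2.5 m, 6.46 at 5 m, 3.36 at 10 m and 1.61 at 20 m, and this was the highest position in the first 3 libraries. Without calcium the same base had 1.22 and in free MNase at 20 m 0.107. At 2 bases before the centre, within the letters TTA, there were 2.30, 3.25, 3.24 and 2.65, and at 20 m that was the highest position. The letters TTA together held 4.77, 6.53, 6.26 and 5.35, and CCCG 0.186, 0.275, 0.328 and 0.452, so cuts inside CCCG stayed rare at every time. In the 30 s replicates TTA had held 0.714, 1.72 and 1.52. The share of the ends within 100 bp that lay within 23 bp of the centre went from 49.6 to 34.6%.

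**Figure D3:**
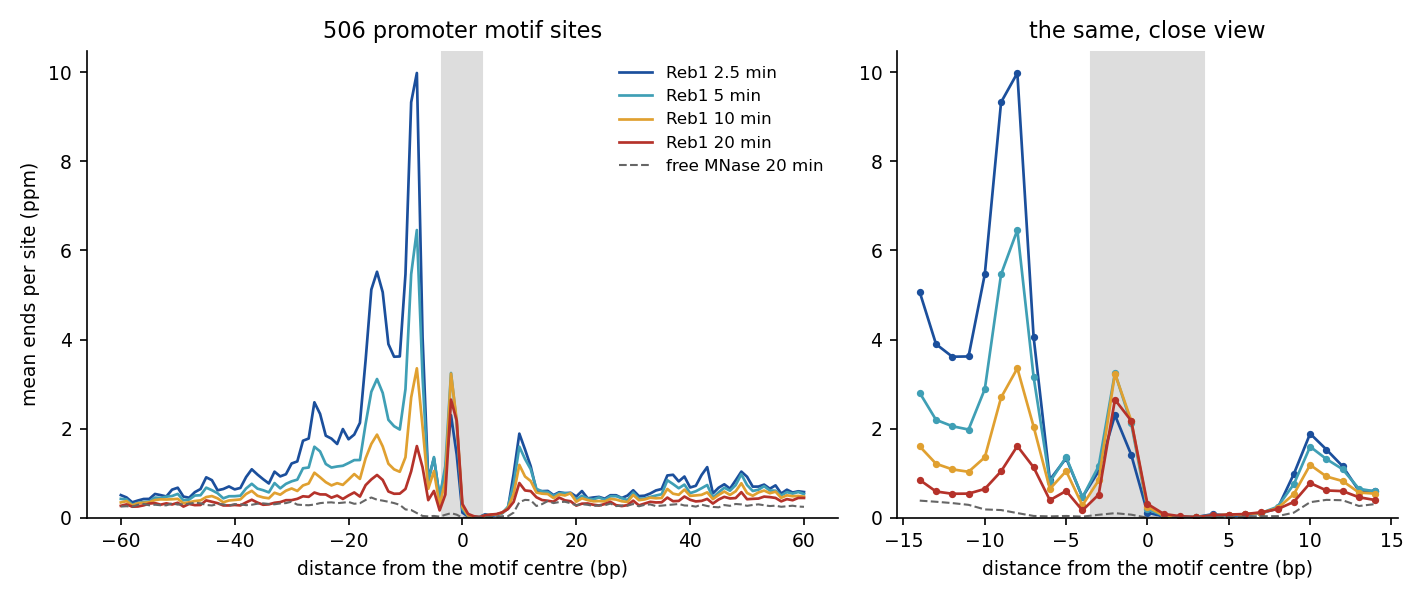
Mean ends per site in ppm (vertical axis) by distance in bp from the motif centre (horizontal axis, negative on the 5′ side of TTACCCG) over 506 promoter sites, for the 4 Reb1 times and free MNase at 20 m, with a closer view at right and the motif shaded. The peak 8 bases before the centre shrinks from 9.98 to 1.61, the one 2 bases before it starts at 2.30 and ends at 2.65, and free MNase runs near the base line.

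Fragments that still held a whole motif became scarce in step. In ppm of nuclear fragments outside the ribosomal DNA they made up 52250 at 2.5 m, 32930 at 5 m, 18070 at 10 m and 9550 at 20 m, compared with 9568 without calcium and 85940 to 96290 at 30 s. Those of up to 80 bp went from 15600 to 4495 and those over 140 bp from 25530 to 3633, so that short ones made up 29.9% of motif-holding fragments at 2.5 m and 47.1% at 20 m.

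Fragments of 80 bp or shorter took a growing share over the course, while those of 120 bp or shorter fell into no order with time. Of nuclear fragments outside the ribosomal DNA, 21.4% were 80 bp or shorter at 2.5 m, 26.5% at 5 m, 29.2% at 10 m and 34.7% at 20 m, against 9.80% without calcium. Those of up to 120 bp were 36.5, 44.7, 37.7 and 46.3%. Those of 81 to 140 bp were 22.5, 24.8, 12.3 and 14.6%, and those over 140 bp 56.0, 48.7, 58.5 and 50.7%. The lengths thus formed a short class that peaked at 61 to 70 bp and a longer class that peaked at 161 to 170 bp in all 4 libraries, with a trough between them that was deep at 10 and 20 m and shallow at 2.5 and 5 m. The medians of 154, 136, 158 and 143 bp fell into no order with time.

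Short fragments were more frequent in these 4 libraries than in the Reb1 libraries of other run codes. The 3 Reb1 replicates at 30 s had medians of 204, 223 and 217 bp and 8.87, 3.44 and 4.02% of fragments of 80 bp or less, and the 60 s library, from one of their run codes, had 196 bp and 8.39%. Reb1 fusions with a short linker and with the nuclease at the N-terminal end, digested for 5 m in another run, had medians of 207 and 218 bp with 8.62 and 5.21%, beside the 136 bp and 26.5% here. At 20 m the other courses had medians of 194 bp (Abf1), 215 bp (Rap1) and 258 bp (free MNase). The library without calcium from the same run had a median of 158 bp, shorter than any of these. Against the 30 s and 60 s libraries, run code, size selection and digestion time cannot be told apart. At equal digestion time, run code and size selection cannot be told apart from the fusion or the strain. Levels were nonetheless ordered alike: across 5842 promoters the level at 5 m had a Spearman's rho of 0.93 with the short-linker fusion and 0.92 with the N-terminal one, a description across promoters that share their sequence.

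**Figure D4:**
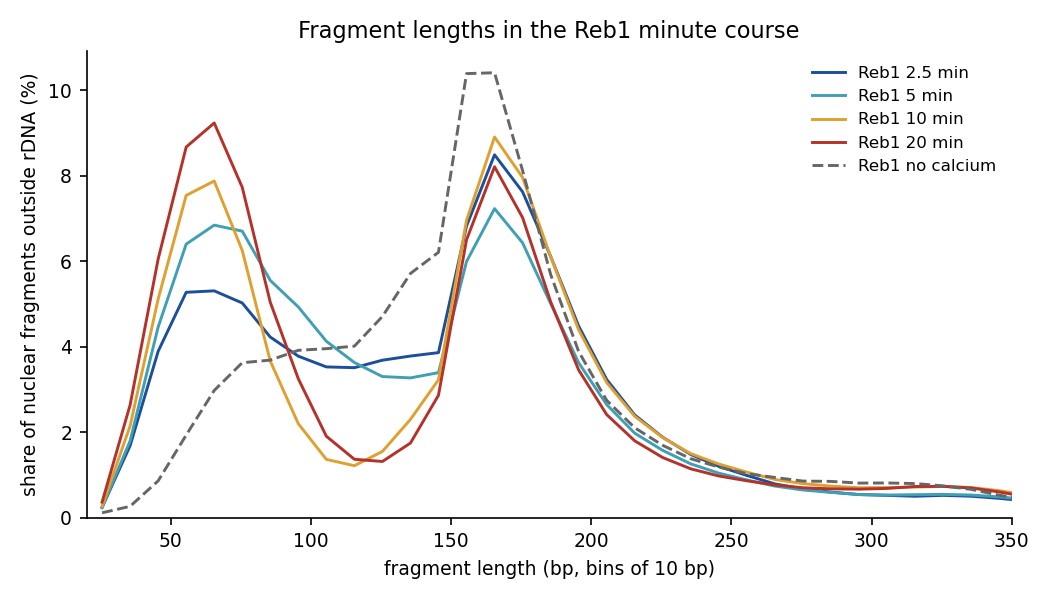
Percentage of nuclear fragments outside the ribosomal DNA (vertical axis) by fragment length in bins of 10 bp (horizontal axis, in bp) for the 4 Reb1 times and the library without calcium. The share of 80 bp or less grows from 21.4% at 2.5 m to 34.7% at 20 m, and the library without calcium has 9.80%.

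The share of short fragments differed between places in the genome, a difference that was not tested. In promoters fragments of up to 80 bp went from 23.7 to 41.4% and the median length from 152 to 98 bp, in coding sequence from 14.9 to 22.6% with medians of 166 and 164 bp, and in the ribosomal DNA from 28.3 to 53.4% with medians of 125 and 77 bp. Promoters that lost share and promoters that gained it did not separate by this measure: their short fragments went from 23.8 to 39.0% and from 21.9 to 39.8%. Among fragments with an end within 100 bp of a motif centre, the short ones went from 22.1 to 35.6%.

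Across the genome, ends moved from noncoding into coding sequence. Coding bases held 28.6% of ends at 2.5 m, 30.1% at 5 m, 34.8% at 10 m and 37.7% at 20 m, while they are 72.4% of bases. Bases that are only promoter, 12.7% of all, held 38.8, 38.7, 36.4 and 34.5%, bases that are only in a 3′ window (200 bp downstream of the stop codon) 4.70, 4.80, 5.03 and 5.03%, bases in both 8.24, 8.31, 8.18 and 7.97%, and the remaining noncoding bases 19.7, 18.1, 15.6 and 14.8%. At these depths counting error was small, with an exact 95% interval of 28.55 to 28.61% for coding bases at 2.5 m. In the 30 s replicates coding bases held 29.7, 27.6 and 28.0%, so the difference from 2.5 to 20 m was larger than the range of those replicates.

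The course resembled those of the other factors more than that of free MNase. Coding bases went from 33.7 to 50.1% with Abf1 and from 28.6 to 43.7% with Rap1, and from 58.3 to 55.1% with free MNase, while promoter-only bases went from 35.9 to 24.8%, from 37.7 to 29.2% and from 19.2 to 21.8%. Reb1 kept the most in promoters, still 34.5% at 20 m. These are single libraries, and the differences between the courses were not tested.

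**Figure D5:**
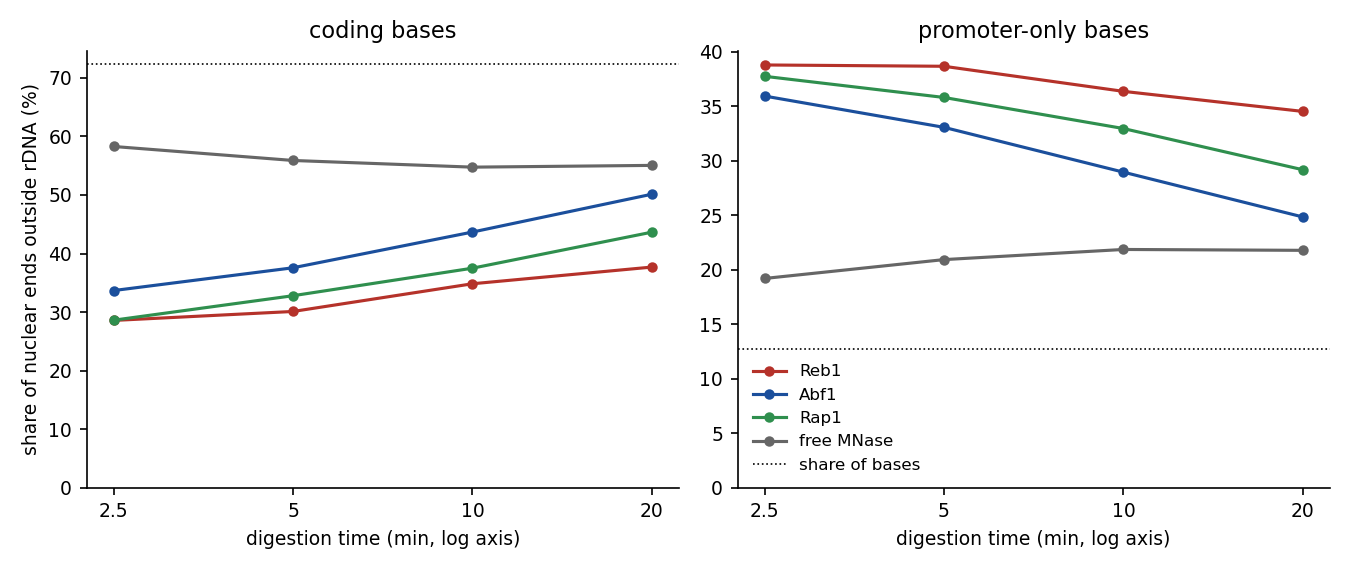
Percentage of nuclear ends outside the ribosomal DNA (vertical axes) in coding bases (left) and promoter-only bases (right) against digestion time in minutes (horizontal log axes) for the Reb1, Abf1, Rap1 and free MNase courses, 1 library per point. Dotted lines give the share of bases, 72.4% and 12.7%, and coding ends grow in the 3 factor courses but not with free MNase.

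Gene by gene, coding sequences gained and few lost. Of 5622 coding sequences past the filter, 62 lost share (1.1%) and 1777 gained it (31.6%), with a median log2 change of 0.81. The median was 0.95 with Abf1, 1.19 with Rap1 and -0.03 with free MNase. Among genes that moved one way at each step, the largest fall was at RRT7 (192.5 to 52.4 ppm), a short gene next to the strong sites shared with FRA1, and the largest rise at FRS1, a subunit of phenylalanyl-tRNA synthetase (9.77 to 47.7). Of 2839 windows 3′ of genes, 277 lost share (9.76%) and 490 gained it (17.3%), with a median of 0.47, beside 0.55 for promoters and 0.81 for coding sequences. Without the filter on low values the medians were 0.69 for 3′ windows, 0.57 for promoters and 0.82 for coding sequences. The 3′ windows thus stood below promoters only with the filter. Between pairs of 30 s replicates the 3′ median lay between 0.091 and 0.52, a range that holds the 0.47, and the coding median between -0.15 and 0.073.

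The motif separated 3′ windows as it did promoters. The 139 windows with TTACCCG had a median log2 change of -1.26, 88 fell (63.3%) and 0 rose, against a median of 0.50 and 7% falling in the 2700 without it. RCK2, a stress-responsive kinase gene, had the largest fall, from 253.5 through 101.7 and 60.5 to 37.1 ppm, with a motif in its 3′ window while its own promoter changed by -0.16. TAH11, a replication licensing factor, had the largest rise, from 8.41 to 47.3. In coding sequence the 197 with the motif had a median of 0.38, with 14 lost and 29 gained, against 0.82 without it. Some 3′ windows are also the promoter of the next gene, so these counts overlap with those for promoters.

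The same promoters were then followed in the other strains. In the free MNase course, the 596 promoters that lost share with Reb1 had a median log2 change of 0.33 and 3 fell, and the 1189 that gained share had 0.29 and 0 rose, in a course where 0.94% of promoters fell and 0.134% rose. In the Abf1 course, where 16.7% fell and 9.87% rose, the Reb1 losses had a median of -0.19 with 133 falling (22.3%), and the Reb1 gains 0.51 with 180 rising (15.1%). In the Rap1 course, where 10.9% fell and 37.0% rose, the Reb1 losses had a median of 0.72, with 58 falling (9.73%) and 186 rising (31.2%), and the Reb1 gains 1.03, with 581 of the 1159 that passed the filter rising (50.1%). Each course has 1 library per time, so these shares stand beside their backgrounds as a description.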

How the data were processed

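ChEC-seq fragments of 24 libraries were used, the 4 Reb1 minute libraries and 20 for comparison, and 33 libraries were not used. The deposited tables give the position of every read pair (25 cycles per read) as its chromosome with 2 coordinates; the authors mapped the pairs with Novoalign 2.08.03 to sacCer3 per the submitters' processing notes, kept identical fragments and applied no normalization. Both coordinates count from 1, so length is end minus start plus 1. Each fragment gave 2 ends. Ribosomal DNA (chromosome XII from 450786 to 490469) and mitochondrial ends were left out of the total on which ppm are based. Of 6002 protein-coding genes in the RefSeq annotation 19 lay in ribosomal DNA, and 5842 of the 5983 promoters kept had a mean of 100 ends or more over the 4 libraries.

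With 1 library per time a fixed 2-fold rule replaced a test. On simulated counts for 5842 promoters, 100 of 100 promoters changed 3-fold were found in each direction, and 0 unchanged ones were called. The simulated counts held counting error only and no spread between libraries. They check the working of the rule and give no rate of false calls for these libraries. Named promoters were the 10 largest falls and rises by fold and the 6 by ppm (moving one way at each step, with a gene symbol, over 10 kb from a chromosome end, overlapping windows once), 12 Reb1 promoters known from the literature, and the extreme coding and 3′ windows. Members and lists were chosen with earlier results of these data known. Python 3.11.15, numpy 2.4.6, pandas 2.3.3, scipy 1.17.1 and matplotlib 3.10.9 were used.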

Additional observations from a re-analysis of the deposited data

Results flagged for a closer look

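Promoters that hold the motif moved in opposite directions in the Reb1 and the Rap1 course. Their median log2 change from 2.5 to 20 m was -1.001 with Reb1 and 0.72 with Rap1, beside medians of all promoters of 0.55 and 0.76. With 1 library per time in each course, this difference was not tested.

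The share of ends in promoter-only bases also moved in opposite directions with Reb1 and with free MNase. It changed by -4.26 percentage points with Reb1 and by 2.58 percentage points with free MNase, and this difference was not tested either.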

How the results depend on the processing

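No paired analysis was possible because each minute time point is 1 library and the Reb1 labels number replicates only at 30 s. Over 86 alternatives to 11 results, 52 left the value within the spread between 30 s replicates or the count within 1.5 times, 33 moved it and 1 reversed its sign; the cause was not tested. The counts of promoters that lost and gained share, 596 and 1189, became 1022 and 2799 at 1.5-fold, 1115 and 115 with scaling by median ratios, 212 and 236 from 5 to 20 m and 137 and 423 from 2.5 to 10 m, and, in a comparison added after seeing the data, 2 and 22 from 5 to 10 m. With identical fragments counted once, 492 lost share and the gains dropped to 273. The median of all promoters was 0.24 with identical fragments once, 0.0054 with median ratios and 0.26 from 5 to 20 m. Motif promoters minus the rest gave -1.64, and -1.25 with identical fragments once, -1.02 from 5 to 20 m and -1.17 from 2.5 to 10 m. The coding median of 0.81 became 0.60 with identical fragments once, 0.26 with median ratios, 0.57 from 5 to 20 m, 0.63 from 2.5 to 10 m, 0.61 with fragments of 120 bp or less and 0.93 with longer ones. The 3′ median of 0.47 became 0.13 with identical fragments once, 0.20 from 5 to 20 m, 0.092 with fragment midpoints and 0.14 with fragments over 120 bp, and it turned to -0.084 with median ratios. Median lengths of 136 and 143 bp at 5 and 20 m became 152 and 156 with identical fragments once and 126 and 98 within promoters. The mean share of promoters past 2-fold between 30 s replicates, 5.14%, was 26.0% at 1.5-fold and lay between 0.325 and 11.1% with each replicate left out, the highest without replicate 2. Dropping the filter on low values, also for coding and 3′ windows (added after seeing the data), moved none past these limits. The 3′ median was then 0.69, above the 0.57 of promoters without the filter. At 1 library per time, depth limits the promoters under 100 ends, and the spread between libraries of this run is unknown.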

Other observations

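Windows that hold a tRNA gene were a larger part of the promoters that gained share than of all promoters, though a small part of both. Of all 5842 promoters 162 hold one (2.77%), against 74 of the 1189 that gained share (6.22%), 7 of the 596 that lost it (1.17%) and 17 of the 115 that were 2-fold higher with scaling by median ratios (14.8%). The median log2 change of the 162 was 0.93, with 0.16 in the free MNase course, -0.24 with Abf1 and 0.73 with Rap1. For all 5842 promoters these medians were 0.55, 0.28, 0.027 and 0.76, so the Rap1 value was close to that of all. DCV1 and HIS2, among the 10 largest rises, are such windows, with HIS2 going from 26.3 through 49.3 and 67.1 to 101.4 ppm of ends, while free MNase had 166.0 and 146.8 there at 2.5 and 20 m.

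Ends became more evenly spread over the bases of the promoters that lost share. This could be computed for the 5570 promoters with at least 100 ends in each library, 596 of the 596 that lost share and 1009 of the 1189 that gained it. In a random draw of 100 ends, the median promoter of the first group would have had 53.3 distinct positions at 2.5 m, 56.7 at 5 m, 59.7 at 10 m and 63.5 at 20 m, while the 1009 that gained share had 61.2, 62.3, 63.6 and 62.9. All 5570 promoters had 60.8 and 64.7 at 2.5 and 20 m.

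Other features of the 500-bp windows are given as values. The mean AT content was 63.1% in the promoters that lost share, 62.4% in those that gained it and 63.2% in all. The word CGCG occurred in 37.9% of the promoters that lost share, 46.6% of those that gained it and 42.7% of all, and the median number of noncoding bases in the window was 495.5, 365 and 451.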
